A study of Homo sapiens with 6 samples.

Results

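NRF2 and the antioxidant defence genes that it is known to control were read on arrays of BT474 breast cancer cells that overexpressed 1 of 2 transcripts of the long noncoding RNA NR2F1-AS1. The set holds 9 genes chosen by symbol: NFE2L2, which encodes NRF2, KEAP1, SQSTM1, NQO1, HMOX1, GCLC, GCLM, TXNRD1 and SRXN1. Every probe that carries one of these names was taken, which gave 1 probe per gene, 9 of 58201 probes and 9 of 43317 gene names on the array. BT474 is an ER-positive and HER2-positive line derived from a primary breast tumor. The study asked what gain of NR2F1-AS1, a transcript it had linked to late relapse, does to such cells. Control BT474 cells carried the empty plasmid pcDNA3.1, BT474-Var1 cells carried pcDNA3.1 with NR2F1-AS1 variant 1, and BT474-Var4 cells carried it with variant 4. By the methods the plasmids were 2 forms of pcDNA3.1, a Hygro(+) form for variant 1 and a P2A-eGFP form for variant 4, each also used empty as a negative control. Plasmid form and variant thus cannot be told apart in Var4 against Var1, and which empty form the Control arrays carried is not given. All 3 populations grew in RPMI-1640 medium with fetal bovine serum, and RNA of each was hybridized to 2 arrays, named A and B. The variant populations grew out from the few cells that survived transfection, so each is the progeny of surviving colonies. Whether arrays A and B of a group came from separate cultures is not given, and p-values then measure the spread between these arrays, which may be technical.

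NRF2 is a transcription factor that the adaptor KEAP1 holds in the cytoplasm and hands to a ubiquitin ligase for destruction. Oxidants and electrophiles modify KEAP1, NRF2 then escapes, enters the nucleus, pairs with a small MAF protein and switches on genes through the antioxidant response element. The activity of NRF2 is set largely by protein stability, which RNA arrays do not measure, and the pathway is best known in tumors for glutathione supply, detoxification and drug export.

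The probes of the 9 genes were placed by the file headers on hg19. They lie at chr2:178095693-178095752 for NFE2L2, chr19:10597262-10597321 for KEAP1, chr5:179263709-179263768 for SQSTM1, chr16:69744274-69744333 for NQO1, chr22:35790122-35790181 for HMOX1, chr6:53362197-53362256 for GCLC, chr1:94352810-94352869 for GCLM, chr12:104732949-104733008 for TXNRD1 and chr20:627563-627622 for SRXN1. SQSTM1, HMOX1 and TXNRD1 are on the plus strand and the other 6 on the minus strand. No exon or UTR annotation of that build was used here. KEAP1 and HMOX1 were spotted 10 times per array and the other 7 genes once.

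RefSeq promoters of GRCh38.p14, from 250 bases before to 50 bases after a start, were listed for 8 of the 9 genes, in 13 windows. They were searched on both strands for TGACNNNGC, the core of the antioxidant response element. It stood in 4 windows of 3 genes, KEAP1, GCLM and TXNRD1, against 13.3% of all 35116 promoters of the same length. The 250 bases upstream of a start are printed here for GCLM, which changed most in BT474-Var1 cells among the members called there and well above background on all 6 arrays, for the KEAP1 window with 2 matches, and for NQO1, which moved the other way from GCLM and has no match in this window. Capitals mark the matches, and a match on the minus strand reads as its reverse complement. All 3 lie on the minus strand of the genome, at chr1:93909431-93909680 for GCLM, chr19:10502772-10503021 for KEAP1 and chr16:69726561-69726810 for NQO1.
GCLM: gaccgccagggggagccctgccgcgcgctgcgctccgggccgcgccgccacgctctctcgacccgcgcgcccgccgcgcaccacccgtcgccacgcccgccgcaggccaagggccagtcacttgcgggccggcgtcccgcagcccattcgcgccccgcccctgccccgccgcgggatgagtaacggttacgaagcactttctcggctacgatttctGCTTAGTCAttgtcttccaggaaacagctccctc
KEAP1: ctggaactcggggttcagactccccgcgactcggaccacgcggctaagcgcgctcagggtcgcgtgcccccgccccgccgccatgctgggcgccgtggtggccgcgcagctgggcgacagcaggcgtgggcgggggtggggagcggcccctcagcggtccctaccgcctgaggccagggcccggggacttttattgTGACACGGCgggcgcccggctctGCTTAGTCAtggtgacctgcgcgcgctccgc
NQO1: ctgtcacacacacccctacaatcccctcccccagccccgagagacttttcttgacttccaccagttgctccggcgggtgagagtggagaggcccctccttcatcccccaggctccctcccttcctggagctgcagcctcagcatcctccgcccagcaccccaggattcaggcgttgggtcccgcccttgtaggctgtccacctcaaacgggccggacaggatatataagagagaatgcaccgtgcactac
The GCLM match, TGACTAAGC, begins 34 bases before the start. KEAP1 has the same letters 31 bases before its start and TGACACGGC at 54 bases before it. TGACTCAGC, a form of the same length with every letter fixed, stood in none of these 3 upstream stretches and in 0.561% of all promoters. A match describes the letters of a window and is not a measured binding site.

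Levels are given as the log2 of the processed spot intensity less the 75th percentile of the same array, so that 0 is a bright but ordinary probe. The 6 arrays had 47.6% to 57.5% of probes well above background, no saturated spots, and replicate correlations across probes of 0.993 to 0.996. All 6 lay on 1 slide, and its columns split them, with both Var1 arrays in one and the other 4 in the next, so that position and the Var1 group cannot be told apart. Of 4 probes named NR2F1-AS1, 2 were well above background on both Var1 arrays and neither Var4 array, 1 on both Var4 arrays and neither Var1 array, and 1 on both arrays of each variant, while no probe reached that mark on more than 1 Control array. The BT474 markers, ERBB2, ESR1, GATA3 and 8 others, were well above background on every array. Markers of other cell types reached it on both arrays for 4 of 10 genes in Control, 5 in Var1 and 5 in Var4. PTPRC, VWF and COL1A1 did so in every group, DCN, a fibroblast gene, only in Var4, and KRT5, COL3A1 and ACTA2 on no array. COL1A1 averaged 1.14 in Control, 1.48 in Var1 and 2.18 in Var4, where DCN averaged -1.55. The summed level of the markers of other cell types was 5.24 to 5.36 in Control, 5.14 to 5.49 in Var1 and 7.74 to 7.84 in Var4, as linear intensity over the 75th percentile, and its part in the results was not tested. A gene was called at an adjusted p under 0.05 in a limma fit over all 31858 tested probes.

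All 9 genes entered the test, and 8 were well above background on every array. In BT474-Var1 against Control, GCLM and SQSTM1 rose and NFE2L2, KEAP1, NQO1 and SRXN1 fell, 6 of 9 genes against 34.4% of all tested probes (14.1% higher and 20.3% lower). In BT474-Var4 against Control, limma called 0 of 9, against 24.2% of all tested probes (9.87% higher and 14.3% lower), and 1 gene, SQSTM1, had an unadjusted p under 0.05. An unmoderated one-way analysis of variance, the kind of test named in the methods, also called 0 at an adjusted p under 0.05. The paper's heat map of these cells used 2-fold and P < 0.05, with no adjustment stated. Limma with a variance trend and robust estimation called 3, KEAP1, SQSTM1 and NQO1. In BT474-Var4 against BT474-Var1, NFE2L2, NQO1 and SRXN1 were higher and GCLM lower, 4 of 9 against 41.2% (20.4% higher and 20.8% lower). None of these differences reached 2-fold together with the adjusted p, which 3.94%, 3.17% and 6.86% of all tested probes did in the 3 comparisons. The median log2 difference of the 9 genes was -0.22, -0.01 and 0.10, beside -0.04, -0.08 and -0.03 over all tested probes. With no filter on dim probes, which puts 58201 probes to the test, the lower GCLM of Var4 against Var1 was the single call left of these 10. Under quantile normalization the Var1 calls were 2 higher and 2 lower instead of 2 and 4. Both variants were compared with the same Control arrays, so that the values of those comparisons are not independent of each other. Var4 against Var1 likewise shares the Var1 arrays with Var1 against Control and the Var4 arrays with Var4 against Control. A gene called in 2 comparisons is thus not 2 independent results.

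**Figure D1:**
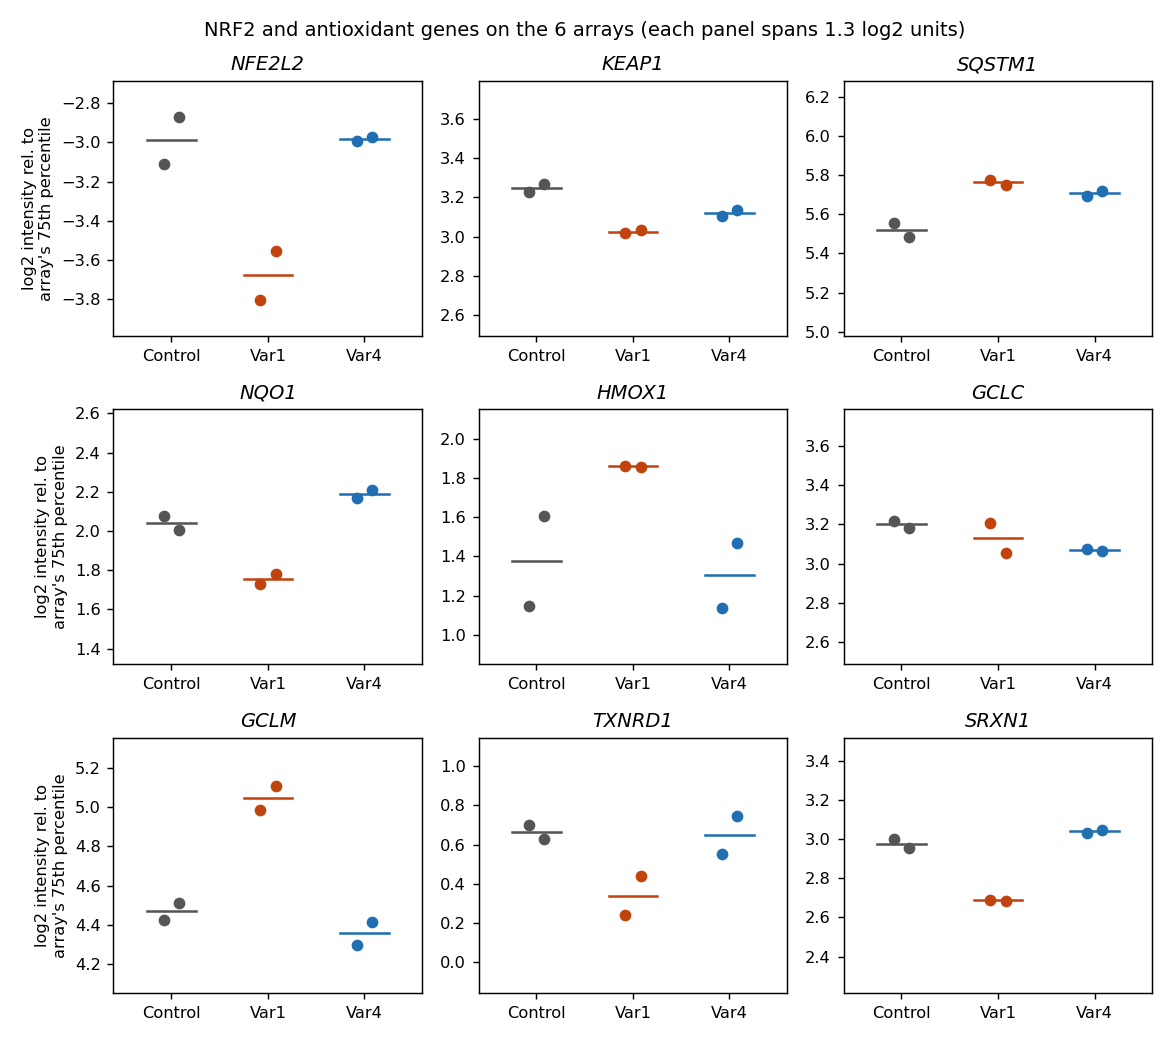
Log2 intensity relative to the array's 75th percentile (y axis) of the 9 genes in Control, Var1 and Var4 cells (x axis); points are single arrays, lines are group means, and each panel spans 1.3 log2 units. The Var1 and Control points do not overlap for 8 of the 9 genes, GCLC being the exception. Such separation was found for 71.8% of all probes compared in this way. The 2 Control points of HMOX1 lie at 1.15 and 1.61.

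NFE2L2, the gene of NRF2 itself, read -3.11 and -2.87 in Control, -3.80 and -3.55 in Var1 and -2.99 and -2.97 in Var4. Both Var1 arrays lay below all 4 others, while Var4 lay between the Control arrays. The probe was dim: it was well above background on both Control and both Var4 arrays and on a single Var1 array, with processed intensities of 7.07 to 14.6. NFE2L2 fell by 0.69 in Var1 (SE 0.12, 1.61-fold, adjusted p = 0.0181), and it was 0.69 higher in Var4 than in Var1 (SE 0.12, adjusted p = 0.0149). Var4 minus Control was 0.01, with a 95% interval of -0.32 to 0.34. The fall in Var1 was lost without Control B (adjusted p = 0.0737) and without Var1 A (0.0635), and the difference between the variants without Var1 A (0.0538), Var4 A (0.0611) or Var4 B (0.0666). The unmoderated one-way analysis of variance called neither (0.0582 and 0.0515). With normexp background correction, whose offset of 50 exceeds these intensities, both differences were 0.00 (adjusted p = 0.983 and 0.963). The Var1 reading of NFE2L2 therefore rests on a spot near background. An RNA level per array cannot tell fewer expressing cells from less RNA per cell, here and for every gene below.

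KEAP1, the repressor of NRF2, read 3.23 and 3.27 in Control, 3.02 and 3.03 in Var1 and 3.11 and 3.14 in Var4. The 3 groups did not overlap, in the order Var1, Var4, Control. KEAP1 fell by 0.22 in Var1 (SE 0.05, 1.17-fold, adjusted p = 0.0306), and Var4 minus Control was -0.13 (95% interval -0.26 to 0.00, adjusted p = 0.134). Var4 minus Var1 was 0.10 (adjusted p = 0.191), so that the neighbours in this order did not differ beyond the threshold. The SD over the 10 spots of an array was 0.06 to 0.09. Leaving out any of the 6 arrays ended the Var1 call: the adjusted p was 0.0992 without Control A, 0.135 without Control B, 0.11 without Var1 A, 0.0963 without Var1 B and 0.0568 without either Var4 array. Quantile normalization brought the difference to -0.10 (adjusted p = 0.209).

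SQSTM1 encodes p62, an autophagy receptor that binds KEAP1 and is itself an NRF2 target. Its levels were 5.56 and 5.48 in Control, 5.78 and 5.75 in Var1 and 5.69 and 5.72 in Var4. Both variants lay above both Control arrays, with Var1 the highest. SQSTM1 rose by 0.24 in Var1 (SE 0.05, 1.18-fold, adjusted p = 0.0304). In Var4 it was 0.19 above Control (95% interval 0.04 to 0.33, adjusted p = 0.0712), and a call there came with quantile normalization (0.26, adjusted p = 0.0356) and with normexp (0.21, adjusted p = 0.0218). Var4 minus Var1 was -0.06 (95% interval -0.20 to 0.09). The Var1 call was lost when any array was left out, with an adjusted p of 0.0812 without Control A, 0.132 without Control B, 0.112 without Var1 A, 0.0912 without Var1 B and 0.0576 without either Var4 array.

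**Figure D2:**
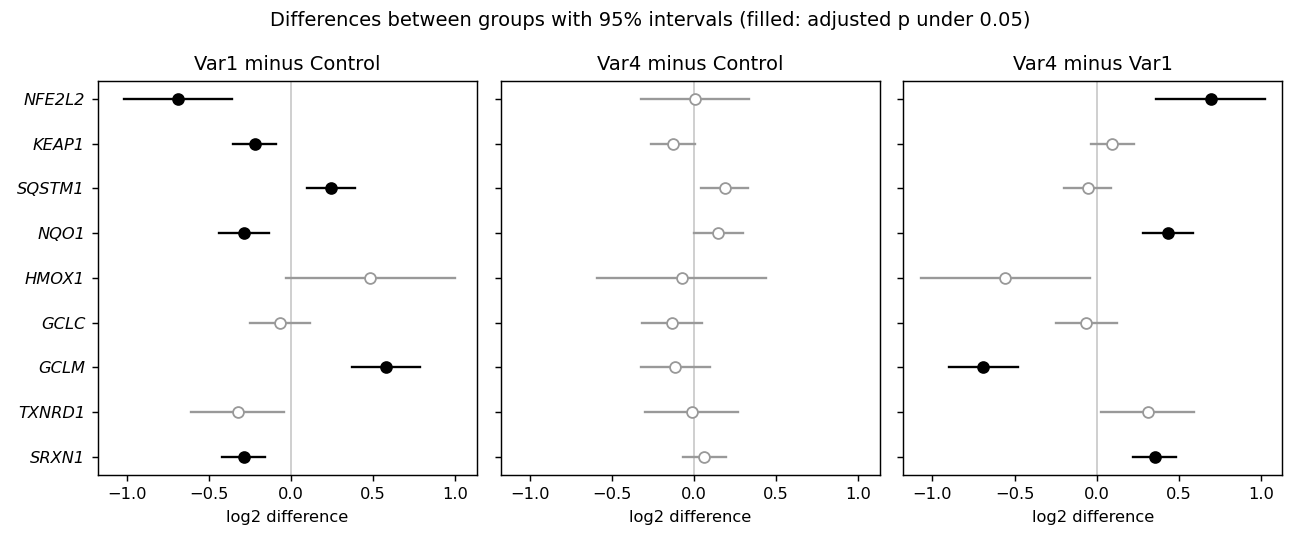
Log2 differences between group means (x axis) of the 9 genes (y axis) in the 3 comparisons; bars are 95% intervals of the limma fit and filled points have an adjusted p under 0.05. In Var1 minus Control 6 genes are filled, in Var4 minus Control none, and in Var4 minus Var1 NFE2L2, NQO1 and SRXN1 lie right of 0 and GCLM left of it.

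NQO1, a quinone reductase and the most used readout of NRF2 activity, was 2.07 and 2.01 in Control, 1.73 and 1.78 in Var1 and 2.17 and 2.21 in Var4. The order was Var1, Control, Var4, with no overlap between any groups. NQO1 fell by 0.28 in Var1 (SE 0.06, 1.22-fold, adjusted p = 0.0231), and Var4 minus Control was 0.15 (95% interval 0.00 to 0.30, adjusted p = 0.128). Between the variants NQO1 was 0.43 higher in Var4 (SE 0.06, 1.35-fold, adjusted p = 0.00707), and this call stayed without any one of the 6 arrays, at an adjusted p of up to 0.0379. The fall in Var1 was lost without Control A (adjusted p = 0.109), Control B (0.0726), Var1 A (0.0933) or Var1 B (0.0676), and under quantile normalization (-0.19, adjusted p = 0.0608).

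HMOX1, heme oxygenase, which opens the heme ring and frees iron, had the largest SD between replicate arrays of the 9 genes in Control and in Var4. It read 1.15 and 1.61 in Control, 1.86 and 1.86 in Var1 and 1.14 and 1.47 in Var4. Both Var1 arrays lay above the other 4, and Control and Var4 overlapped. Its 10 spots per array had an SD of 0.05 to 0.08, against the SD of 0.32 between the 2 Control arrays. Var1 minus Control was 0.48 (95% interval -0.03 to 1.00, adjusted p = 0.125) and Var4 minus Var1 was -0.56 (95% interval -1.07 to -0.04, adjusted p = 0.081), neither of them called. Both passed the threshold with normexp, at 0.38 (adjusted p = 0.0276) and -0.44 (adjusted p = 0.0127). Var4 minus Control was -0.08 (95% interval -0.59 to 0.44).

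**Figure D3:**
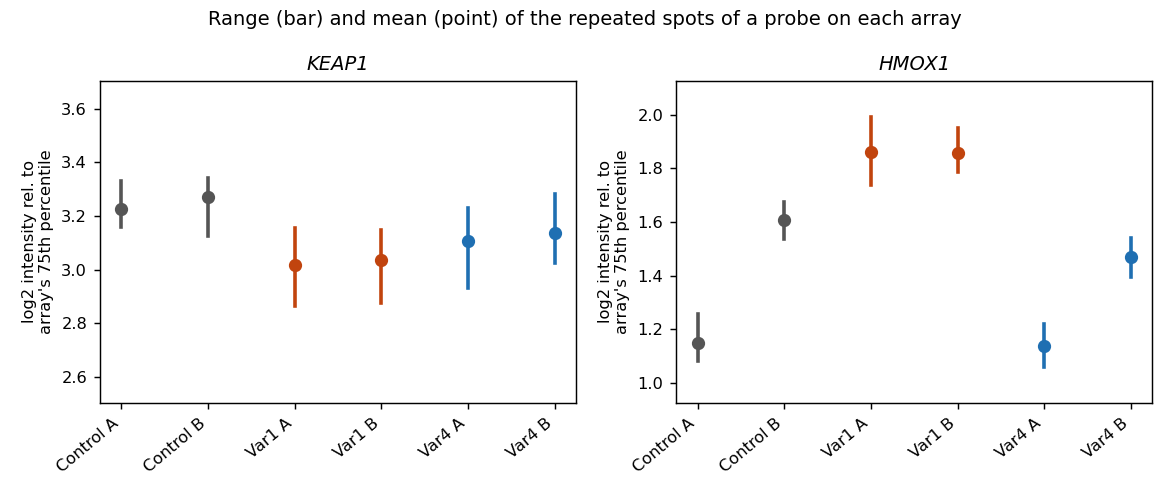
Log2 intensity relative to the array's 75th percentile (y axis) of the KEAP1 and HMOX1 probes on each array (x axis); points are means and bars the range of the 10 spots of the probe. The spots of HMOX1 reach from 1.08 to 1.26 on Control A and from 1.54 to 1.67 on Control B, while the KEAP1 bars of neighbouring arrays overlap.

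GCLC and GCLM encode the catalytic and the modifier subunit of glutamate-cysteine ligase, which makes the first bond of glutathione. GCLM read 4.43 and 4.51 in Control, 4.99 and 5.11 in Var1 and 4.30 and 4.42 in Var4. Both Var1 arrays lay above all others, and Var4 lay just below Control. GCLM rose by 0.58 in Var1 (SE 0.08, 1.49-fold, adjusted p = 0.00936), and it was lower in Var4 than in Var1 by 0.69 (log2 difference -0.69, SE 0.08, 1.61-fold, adjusted p = 0.00508). Being under 2-fold, neither passes a 2-fold threshold. The second call stayed in the 15 other settings run for single genes, with an adjusted p of at most 0.0345, and the first was lost without Control A (0.53, adjusted p = 0.0566). Var4 minus Control was -0.11 (95% interval -0.32 to 0.10).

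GCLC read 3.22 and 3.18 in Control, 3.21 and 3.06 in Var1 and 3.07 and 3.06 in Var4. Var1 overlapped with both of the other groups. Var1 minus Control was -0.07 (95% interval -0.25 to 0.12), Var4 minus Control -0.13 (-0.32 to 0.05) and Var4 minus Var1 -0.06 (-0.25 to 0.12), with adjusted p of 0.49, 0.229 and 0.493.

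TXNRD1, the cytosolic thioredoxin reductase, read 0.70 and 0.63 in Control, 0.24 and 0.44 in Var1 and 0.55 and 0.75 in Var4. Both Var1 arrays lay below the others, and the Control arrays lay within the range of Var4. Var1 minus Control was -0.32 (95% interval -0.61 to -0.04, adjusted p = 0.0791) and Var4 minus Var1 was 0.31 (95% interval 0.03 to 0.59, adjusted p = 0.079). Neither was called, and both were with normexp (adjusted p = 0.0114 and 0.00829) and with a variance trend and robust estimation (0.00734 and 0.00876). Var4 minus Control was -0.01 (95% interval -0.30 to 0.27).

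SRXN1, sulfiredoxin, which repairs overoxidized peroxiredoxins, read 2.998 and 2.954 in Control, 2.69 and 2.68 in Var1 and 3.03 and 3.05 in Var4. Var1 stood clearly below, and Var4 lay slightly above Control. SRXN1 fell by 0.29 in Var1 (SE 0.05, 1.22-fold, adjusted p = 0.0155) and was 0.35 higher in Var4 than in Var1 (SE 0.05, 1.28-fold, adjusted p = 0.00814). The difference between the variants stayed without any one array, at up to 0.0414, while the fall was lost without Control A (0.0838), Control B (0.0652), Var1 A (0.0636) or Var1 B (0.0671). Var4 minus Control was 0.06 (95% interval -0.07 to 0.19).

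Read by role, the 6 genes best known as NRF2 targets or glutathione enzymes, NQO1, HMOX1, GCLC, GCLM, TXNRD1 and SRXN1, split in Var1 cells. GCLM rose, NQO1 and SRXN1 fell, and the other 3 were not called. The arrays of Var1 and Control did not overlap for 8 of the 9 genes, of which 3 lay above and 5 below, beside 71.8% of all probes compared in this way (31.2% above and 40.6% below). Var4 and Control did not overlap for 6 genes, 3 in each direction, beside 68.6% (26% above and 42.6% below). Var4 and Var1 did not overlap for 8 genes, 5 above and 3 below, beside 74.7% (35.4% above and 39.3% below). With 2 arrays a group, such separation was thus common among all probes.

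A wider set of 93 genes of the pathway, in 5 lists by role, put the members in context, and 86 of these genes were tested. In Var1 against Control 11 rose and 27 fell (44.2% of those tested), in Var4 against Control 26 rose and 14 fell (46.5%), and in Var4 against Var1 40 were higher and 14 lower (62.8%), beside the 34.4%, 24.2% and 41.2% of all tested probes given above. Their median log2 differences were -0.17, -0.01 and 0.21. These genes were taken by their brightest probe, while all tested probes include dimmer ones, which were called less often. Among probes well above background on all 6 arrays, 39, 41 and 55 of 82 pathway genes were called in the same order. Beside them stood 11582, 8704 and 12930 of 26710 probes. The 27 include ABCC4, which was well above background on 1 Control array and not on either Var1 array. These counts leaned on single arrays: the 38 of Var1 against Control became 14 without Control A, 15 without Control B, 20 without Var1 A and 21 without Var1 B. The 40 of Var4 against Control became 12 and 9 without Control A and B, 17 and 16 without Var4 A and B, and 26 without either Var1 array. The 54 between the variants became 27 and 30 without Var1 A and B, 32 and 36 without Var4 A and B, and 37 without either Control array. The counts over all tested probes fell as well with each array left out, so that this loss is not particular to these genes. Unless said otherwise, each call of a single gene below stayed when any 1 array was left out.

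**Figure D4:**
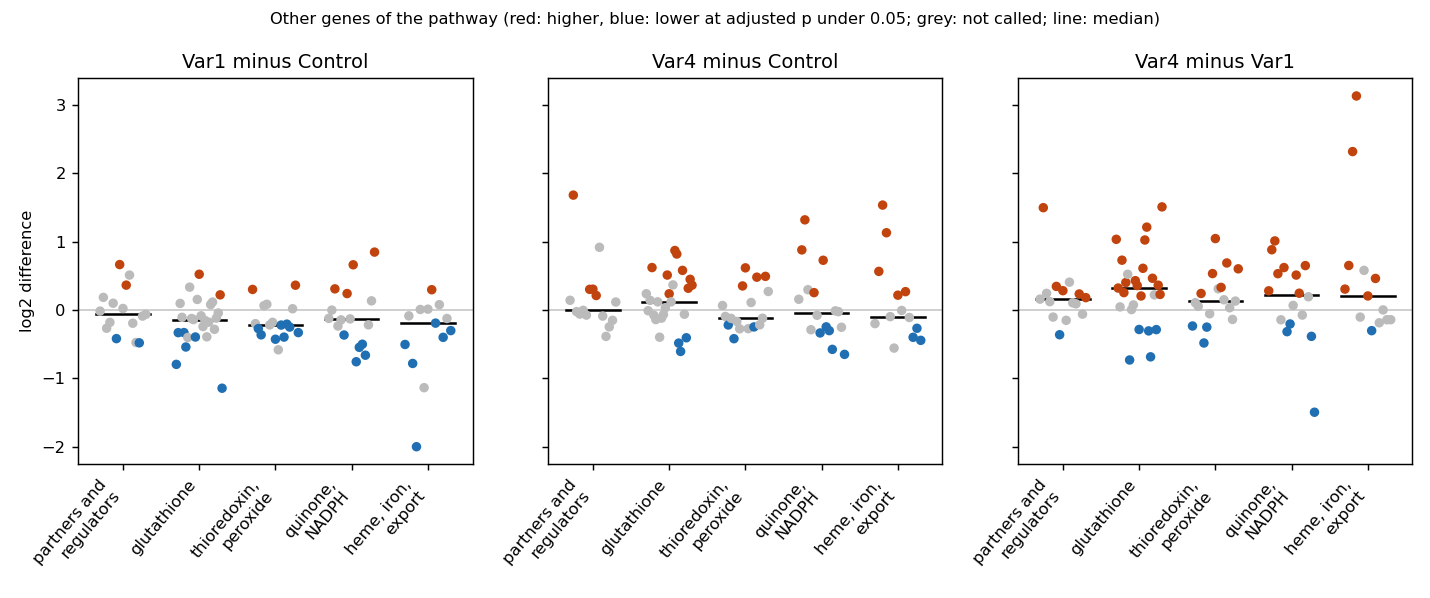
Log2 differences (y axis) of the 86 tested genes of the 5 pathway lists (x axis) in the 3 comparisons; each point is 1 gene, red and blue are called higher and lower at an adjusted p under 0.05, grey is not called and the line is the list's median. The glutathione genes shift upward in Var4 minus Var1, where 15 are higher and 5 lower, and the lowest point of the first panel and the highest of the third are ABCC4, which was not well above background in Var1.

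The glutathione list, which supplies and uses the product of GCLC and GCLM, had 15 of 25 genes higher and 5 lower in Var4 than in Var1 (60% and 20%, median 0.32), beside 20.4% and 20.8% of all tested probes. Against Control, 2 rose and 6 fell in Var1 (8% and 24%, beside 14.1% and 20.3%) and 9 rose and 3 fell in Var4 (36% and 12%, beside 9.87% and 14.3%). SLC7A11, the cystine importer that feeds glutathione synthesis, read -0.05 and -0.07 in Control, -1.13 and -1.28 in Var1 and 0.26 and 0.35 in Var4. It fell by 1.15 in Var1 (adjusted p = 0.00351) and was 1.51 higher in Var4 than in Var1 (adjusted p = 0.00132), or -0.64 and 0.92 with normexp. CHAC1, which degrades glutathione, fell by 0.80 in Var1 (adjusted p = 0.0048) and was 1.03 higher in Var4 than in Var1 (adjusted p = 0.00198), and its second probe gave -0.58, which was not called, and 0.91, which was. GSTM3, a glutathione transferase of the mu class, rose by 0.87 in Var4 (adjusted p = 0.00333), from 4.25 and 4.22 in Control to 5.12 and 5.08, with the reserve that its family shares sequence. GSTP1, the pi class transferase, fell by 0.61 in Var4 (adjusted p = 0.00569), or -0.22 with normexp. SLC7A11 thus moved the other way from GCLM in both Var1 against Control and Var4 against Var1, which share the Var1 arrays.

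Among the 15 partners and regulators of NRF2, 2 rose and 2 fell in Var1 and 4 rose in Var4. Those called made up 26.7% in each, near the 34.4% and 24.2% of all tested probes, so that the number called is no result about the list. By direction, 13.3% were higher and 13.3% lower in Var1, beside 14.1% and 20.3%. In Var4, 26.7% were higher and 0% lower, beside 9.87% and 14.3%. In Var4 against Var1, 5 were higher and 1 lower (33.3% and 6.67%), beside 20.4% and 20.8%. With 15 genes, these shares rest on few calls. The small MAF genes, whose products pair with NRF2 or its competitors, were in part called. MAFF rose by 0.66 in Var1 (adjusted p = 0.00413; 0.41 with normexp). It was lower in Var4 than in Var1 (-0.36, adjusted p = 0.00845; -0.24 with normexp). MAFF, MAFG and MAFK rose in Var4 against Control, by 0.30, 0.30 and 0.21 (adjusted p = 0.0223, 0.0331 and 0.048). MAFK also rose in Var1, by 0.36 (adjusted p = 0.0102), and MAFG was not called there (0.02, adjusted p = 0.812). The Var4 rises and that of MAFK in Var1 were each lost without some single array. BACH2, a repressor that binds the same elements, read -3.62 and -3.40 in Control, -3.38 and -3.27 in Var1 and -1.86 and -1.80 in Var4. The Var4 arrays stood well above the other 4, and BACH2 rose there by 1.68 (adjusted p = 0.00333). Its probe was dim in Control and Var1, and with normexp the difference was 0.36 (adjusted p = 0.000392). GSK3B, a kinase that marks NRF2 for KEAP1-independent degradation, fell by 0.42 in Var1 (adjusted p = 0.00903), a call lost without Control B (0.0543).

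The 17 tested genes of the thioredoxin, peroxiredoxin and superoxide list, to which TXNRD1 and SRXN1 are joined by function, fell more often than they rose in Var1, 8 against 2, beside 20.3% and 14.1% of all tested probes, and 4 rose and 3 fell in Var4, beside 9.87% and 14.3%. SESN2, a stress-induced sestrin, read -0.27 and -0.45 in Control, -0.79 and -0.78 in Var1 and 0.32 and 0.20 in Var4, and was 1.05 higher in Var4 than in Var1 (adjusted p = 0.00271; 0.60 with normexp). SOD3, the extracellular superoxide dismutase, was 0.69 higher in Var4 than in Var1 (adjusted p = 0.00214), and PRDX4, the peroxiredoxin of the endoplasmic reticulum, was lower there (-0.48, adjusted p = 0.00402).

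Of 16 tested genes for quinone and carbonyl detoxification and NADPH supply, the list closest to NQO1, 4 rose and 5 fell in Var1, 4 rose and 5 fell in Var4, and 8 were higher and 4 lower in Var4 than in Var1. The shares were 25% and 31.2%, 25% and 31.2%, and 50% and 25%, beside 14.1% and 20.3%, 9.87% and 14.3%, and 20.4% and 20.8% of all tested probes. PGD, which makes NADPH in the pentose phosphate path, fell by 0.66 in Var1 (adjusted p = 0.00385) and its difference in Var4 was -0.01 (adjusted p = 0.864). AKR1B10, an aldo-keto reductase and NRF2 target, rose by 1.32 in Var4 (adjusted p = 0.00338; 0.81 with normexp), with 1.16 on its second probe. UGT1A6, a glucuronosyltransferase whose last exons are shared with the rest of its locus, read 2.56 and 2.75 in Control, 3.50 and 3.50 in Var1 and 2.009 and 1.995 in Var4. It rose by 0.85 in Var1 (adjusted p = 0.00516), and Var4 minus Var1 was -1.50 (adjusted p = 0.00139), a direction that its second probe shared.

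The heme, iron and export list, which holds the neighbours of HMOX1 and the efflux pumps, had 1 gene higher and 6 lower of 13 in Var1, 5 higher and 3 lower in Var4, and 6 higher and 1 lower in Var4 against Var1. The shares were 7.69% and 46.2%, 38.5% and 23.1%, and 46.2% and 7.69%, beside the same 3 pairs for all tested probes. ABCC3, a pump of glucuronide and glutathione conjugates, read 4.01 and 3.95 in Control, 3.11 and 3.29 in Var1 and 5.54 and 5.50 in Var4. It fell by 0.78 in Var1 (adjusted p = 0.00563) and rose by 1.54 in Var4 (adjusted p = 0.00311), with the same directions called on its second probe. ABCC4, a related pump, was not well above background on either Var1 array and was higher in Var4 than in Var1 (adjusted p = 0.0012). With its Var1 values raised to the dimmest well-above-background signal of each array, the difference was 2.11-fold. That signal is no strict detection limit, so this is not a firm lower bound, and the normexp difference given below is smaller. It is also counted among the 6 lower in Var1 against Control, but only 1 Control array had it well above background. No fall was thus measured there. ABCC2 was 0.65 higher in Var4 than in Var1 (adjusted p = 0.00271). FTL, the ferritin light chain, whose processed copies in the genome make probes uncertain, fell by 0.40 in Var1 (adjusted p = 0.00976, lost without Control B at 0.0556; -0.26 with quantile normalization).

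The probes most like each member over the 6 arrays were looked up among 19828 (19829 for NFE2L2) that were well above background on all arrays, had a value on each and carried a name in capitals, digits and hyphens that does not begin with LOC, LINC, XLOC or ENST, as a description only. NQO1 followed SBNO1 and SUSD6 (Pearson r = 0.999 and 0.9986), SRXN1 followed MRPL19 and EFHD1 (0.9993 and 0.9986), and GCLM followed PRSS23 and RBM43 (0.9986 and 0.9985). KEAP1 followed a transcript with no gene symbol and HNRNPA1L2 (0.9991 and 0.9973). For SQSTM1 they were BLZF1 and NAMPT (0.9978 and 0.9971), for NFE2L2 CTAGE15 and ATP2B1 (0.9968 and 0.9963), and for TXNRD1 ANKEF1 and KRTAP5-AS1 (0.9954 and 0.9939). HMOX1 and GCLC had the least close neighbours, TMBIM1 (0.9909) and MEN1 (0.9887) for the first and SAR1A (0.9871) and NAP1L4 (0.985) for the second. At r of 0.99 or more, SRXN1 had 207 probes, NQO1 86, GCLM 39, KEAP1 30 and GCLC 0. The 6 arrays share 3 groups and 1 slide, and the probes were picked for their r.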

How the data were processed

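RNA of 3 groups of BT474 cells, 2 arrays each, was read on one-color Agilent arrays after Cy3 labeling. The deposited scanner files hold a spot intensity on a linear scale, which the authors obtained with Agilent Feature Extraction 11.5.1.1 (background subtraction, flags for outlier, dim and saturated spots) and which is not normalized between arrays. The deposited table holds log2 values after the authors' shift to the 75th percentile of each array. Here the log2 processed intensity less the 75th percentile over non-control probes was recomputed, without the 63 to 128 outlier spots per array and with a mean over repeated spots. A probe was tested if both arrays of some group had it well above background, which 31858 probes met. Limma 3.58.1 in R 4.3.3 fitted 1 mean per group over all 6 arrays, with Benjamini-Hochberg adjustment, on 3 residual and 1.53 prior degrees of freedom. The number of arrays thus limits the precision. On simulated data of 31807 probes for Var1 against Control, 83.5% of 200 probes shifted by 2 log2 units were recovered with 3 false calls. That shift is larger than every difference found for the members, so the rate does not tell how often differences of their size are recovered.

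The members and gene lists were chosen with earlier results of these data known. The text names the 9 members, NR2F1-AS1, the 2 probes most correlated with each member, and genes of the 5 pathway lists that were among the 4 largest called differences of a comparison and well above background on each array of its brighter group. A pathway gene was taken by its brightest tested probe. A bound replaces the dim group's value by the dimmest well-above-background signal of its array where that is higher. A probe brighter than that signal can still miss the mark, as NFE2L2 did on a Var1 array, so such a bound is approximate. Motifs were searched in RefSeq promoters of GRCh38.p14, and these were not compared with the hg19 positions of the probes. The letters A and B were checked for pairing: deviations of same-lettered arrays from their group means correlated at -0.01, 0.05 and -0.02, so that no pairing was used. Alternatives were normexp (offset 50), quantile normalization, other filters on dim probes, the deposited log2 table, a block for the letters, a variance trend with robust estimation, each array left out, fits of only 2 groups, an unmoderated one-way analysis of variance, a 2-fold threshold and the mean over a gene's probes. 1 gene of the pathway lists is counted in the totals but not reported here.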

Additional observations from a re-analysis of the deposited data

Results flagged for a closer look

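These results are given because the effects of the 2 variants on a gene differed in a direct limma test of BT474-Var4 against BT474-Var1 cells, with no explanation weighed. Values are log2 differences of Var4 minus Var1. Of the 9 members, NFE2L2 (0.69), NQO1 (0.43) and SRXN1 (0.35) were higher in Var4 and GCLM (-0.69) was lower. Among the partners and regulators the differences were 1.50 for BACH2, -0.36 for MAFF, 0.28 for MAFG, 0.34 for GSK3B and 0.23 for PGAM5. In the glutathione list they were 1.51 for SLC7A11, 1.03 for CHAC1, 1.21 for GSTM4, 1.02 for GSTM3, 0.73 for GLRX, 0.40 for GPX1, -0.29 for GSTA4 and -0.69 for GSTP1. For peroxide and superoxide removal they were 1.05 for SESN2, 0.53 for SESN1, 0.69 for SOD3, 0.60 for TXNRD2, 0.24 for PRDX3 and -0.48 for PRDX4. For detoxification and NADPH supply they were 1.01 for AKR1B10, 0.88 for AKR1B1, 0.65 for PGD, 0.51 for IDH1 and -1.50 for UGT1A6. The export and heme genes gave 2.32 for ABCC3, 0.65 for ABCC2, 0.31 for ABCC1 and 0.46 for FECH, and ABCC4 had a fitted 3.13, which is no measured size since it was not well above background in Var1.

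Some of these calls were lost when 1 array was left out, at an adjusted p of up to 0.0666 for NFE2L2 (Var1 A, Var4 A or Var4 B), 0.0551 for GSK3B (Var1 A or Var4 B), 0.0604 for GPX1 (Var1 A or B), 0.0791 for GSTA4 (Var1 A, Var1 B or Var4 A), 0.054 for GSTM4 (Var1 A or Var4 A), 0.0978 for MAFG and 0.0792 for PRDX3 (any array of either variant), 0.0942 for ABCC1 (any array but Var1 A) and 0.167 for PGAM5 (any array). MAFG and PRDX3 were also lost with quantile normalization (adjusted p = 0.0613 and 0.0768). With normexp some differences were over 1.5 times smaller, at 0.00 for NFE2L2, 0.27 for BACH2, -0.24 for MAFF, 0.92 for SLC7A11, 0.54 for GSTM4, -0.27 for GSTP1, 0.60 for SESN2, 0.29 for TXNRD2, 0.63 for AKR1B10, 0.40 for AKR1B1 and 0.26 for ABCC4.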

How the results depend on the processing

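With no filter on dim probes the calls among the 9 members went from 6 to 0 in Var1 against Control and from 4 to 1 in Var4 against Var1. Those among the pathway genes went from 38 to 11, 40 to 4 and 54 to 22 in Var1 against Control, Var4 against Control and Var4 against Var1. Those among all probes went from 10959 to 2672, 7709 to 722 and 13117 to 5112. More probes were tested there, and the SE of the members rose at unchanged differences. For Var1 against Control it went from 0.050 to 0.076 for KEAP1 and from 0.049 to 0.076 for SRXN1. The part of each in the lost calls was not tested. With the 2-fold threshold added the counts were 0, 0 and 0 members, 2, 4 and 10 pathway genes, and 1256, 1010 and 2187 probes. With the letters as a replicate block, 3 members were called in Var1 against Control, and 24 pathway genes and 4903 probes in Var4 against Control. What the letters stand for is not given, and the cause of these losses was not tested. With only the groups compared, 26 pathway genes were called in Var4 against Control. In that comparison 1 member was called with normexp, 1 with quantile normalization, 1 with the filter on all 6 arrays and 3 with the variance trend, where the main setting called 0, and the cause was not tested. With each array left out in turn, where the lone array of a group is assumed to vary like the others, the members called ranged from 1 to 4, 0 to 0 and 3 to 4, the pathway genes from 14 to 32, 9 to 26 and 27 to 37, and the probes from 4172 to 9409, 1501 to 5487 and 8086 to 10693. With the 2-fold threshold left aside, of 148 alternatives of the 10 called member differences, 102 kept the call, 46 lost it and 0 changed sign. Of the 17 differences not called, some changed sign: SQSTM1 Var4 minus Var1 was 0.0204, GCLC Var4 minus Var1 0.0123 and TXNRD1 Var4 minus Control 0.00791 with normexp, and GCLC Var1 minus Control was 0.0559 with quantile normalization. With arrays left out, Var4 minus Control ranged from -0.114 to 0.126 for NFE2L2, from -0.305 to 0.154 for HMOX1 and from -0.114 to 0.0843 for TXNRD1, and for GCLC Var1 minus Control from -0.144 to 0.00776 and Var4 minus Var1 from -0.14 to 0.0116. All arrays had 1 slide and 1 scan, so that a block for them was not run. Signals near background, as for NFE2L2 in Var1, limit what can be read.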

Other observations

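A few further genes of the pathway lists were called in both variants against the Control arrays, which the 2 comparisons share. IDH1, a cytosolic source of NADPH, fell by 0.76 in Var1 (adjusted p = 0.00414) and by 0.25 in Var4 (adjusted p = 0.0472), the second call being lost without any 1 array, at up to 0.177. TXNIP, the inhibitor of thioredoxin, rose by 0.36 in Var1 (adjusted p = 0.0123, up to 0.0692 without Control A, Control B or Var1 A) and by 0.49 in Var4 (adjusted p = 0.00974, up to 0.0631 without Control A or B). SLC40A1, the iron exporter ferroportin, fell by 0.30 in Var1 (adjusted p = 0.0271, lost without any 1 array, at up to 0.12, and with quantile normalization) and by 0.45 in Var4 (adjusted p = 0.0155, up to 0.0857 without a Control or Var4 array). GLRX, a glutaredoxin, rose by 0.62 in Var4 (adjusted p = 0.00639, 0.0501 without Control A), and its difference in Var1 was -0.11 (adjusted p = 0.205).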
